A study of Drosophila melanogaster with 12 samples.

Results

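Whole larvae lacking Mlx were compared with whole control larvae of Drosophila melanogaster on a high sugar diet, across all measured genes. The comparison takes every library that the labels place in these 2 groups, which are 6 of the 12 RNA-seq libraries of the study. The mlx1 group is homozygous for a null allele of Mlx and the control group is wild type, each with 3 libraries lettered A, B and C. Eggs were laid over 3 h, first instar larvae were placed on 10% yeast 24 h later, and after another 24 h the larvae, labelled as 3rd instar, went to 10% yeast with 20% sucrose and were frozen 8 h after that move. The other 6 libraries, 3 of mlx1 and 3 of control larvae, come from 10% yeast without sucrose at 1.5 h and are used for the low sugar side of the comparison between diets. In all groups, larvae that did not feed had been taken out at 1.5 h. There was 1 mutant line and 1 control line, so a difference due to Mlx cannot be told apart from any other difference between the lines. The labels do not tie the replicate libraries to separate cultures, and the p-values therefore reflect only how far these libraries spread, which may be technical. Each library holds a whole animal's mixture of tissues, and fewer cells of a type cannot be told apart from less RNA per cell.

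Mlx is the partner of Mondo, and the pair is the fly counterpart of the mammalian ChREBP-Mlx and MondoA-Mlx transcription factors. The complex responds to phosphorylated sugars inside the cell and binds carbohydrate response elements in its target genes, which include enzymes that burn glucose, store it and turn it into fat. Fly larvae without Mlx are known to grow poorly on sugar-rich food.

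The 6 libraries held between 8924342 and 11032921 counts. Levels are given as CPM, a gene's counts scaled to a common library total and not divided by its length. Within a group, libraries correlated at a Pearson's r of 0.957 to 0.983 in log2 CPM, computed over genes that are no independent replicates. The libraries differed in cuticle protein genes, which follow the moulting cycle: the mean of the 95 tested members was 4.16, 4.28 and 4.74 log2 CPM in mlx1 libraries A, B and C, against 5.15, 4.99 and 3.28 log2 CPM in control libraries A, B and C. Control library C thus lay below the other 5 libraries in this mean. By the summed CPM of the list it was not the lowest, at 14322 against 14192 CPM in mlx1 library B. Of 8 muscle markers 1 was higher and of 7 hemocyte markers 1 was lower in mlx1, Mlc2 (0.47 ± 0.10) and vkg (-0.38 ± 0.11), and each lost its call without mlx1 library A, mlx1 library C or control library B, as did vkg without control library A or control library C. At an unadjusted p under 0.05, 3 of the 8 muscle markers were higher and 4 of the 7 hemocyte markers lower. DESeq2 called 1 muscle marker higher and 2 hemocyte markers lower, and among all genes 706 higher and 918 lower. The share of all genes with an unadjusted p under 0.05 was not counted. Such counts, here and for the lists below, therefore have no background to be read against. The number of hemocyte markers called lower ran from 0 to 3 over the alternatives tried. No tested marker of neurons (7), salivary glands (4), males (1), fat body (1) or ecdysone response (14) was called by edgeR or by DESeq2, while 1 male marker and 1 fat body marker had an unadjusted p under 0.05. The markers Fbp1, Sgs5 and roX1 had no count in these 6 libraries. The same held for the proteasome subunit gene Prosalpha1 and the respiratory complex gene CG3560. Whether such genes are silent or their reads were lost in counting was not tested.

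Of 10045 genes tested, 1392 (13.9%) differed between mlx1 and control larvae on high sugar at an adjusted p under 0.05 (edgeR quasi-likelihood test, Benjamini-Hochberg). In mlx1 larvae 683 of them (6.8%) were higher and 709 (7.06%) lower. The difference was at least 1 on the log2 scale, a factor of 2, for 256 of the higher and 243 of the lower genes, and at least 2 on the log2 scale for 90 and 79. The CPM of the 3 mlx1 libraries did not overlap those of the 3 control libraries for 1388 of the called genes, and for 37.9% of all tested genes. The median log2 fold change over all tested genes was 0.00, so the gene lists below are read against 0.00, 6.8% and 7.06%. The number of calls fell to 825 without mlx1 library A and to 836 without control library B, and the genes lower in mlx1 numbered 418, 441 and 415 without mlx1 library A, mlx1 library C and control library B. Without control library C, which had the lowest mean log2 level of cuticle genes, 1123 genes were called.

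**Figure D1:**
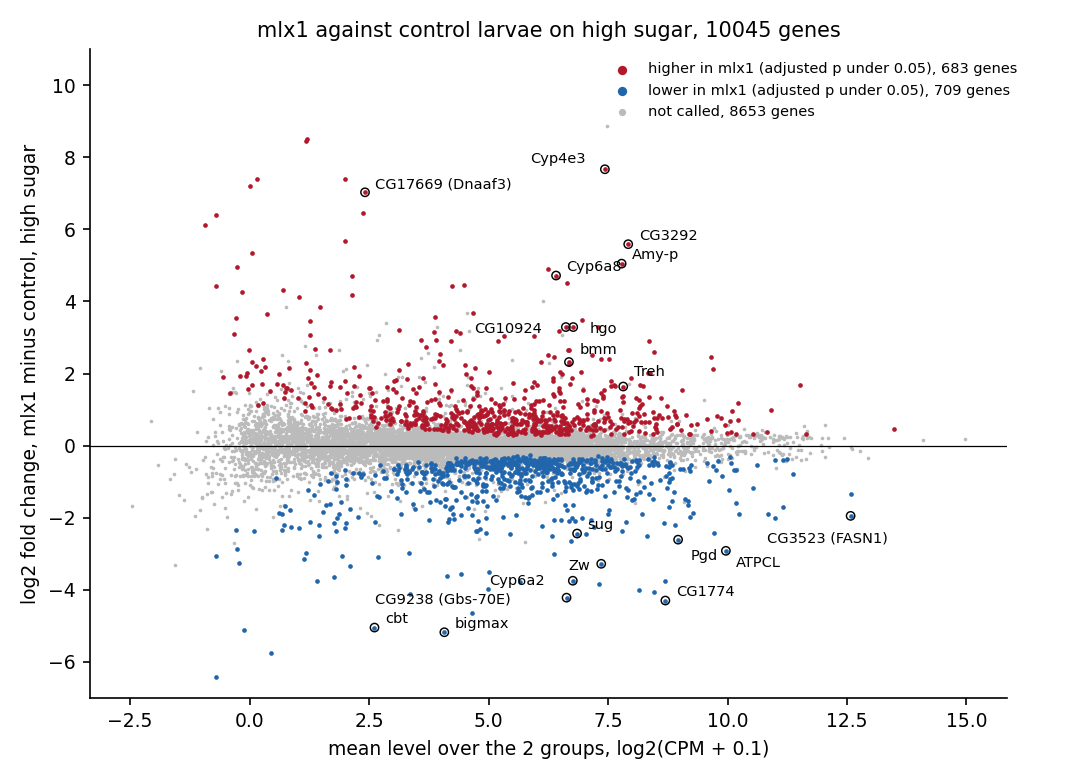
Each point is 1 of 10045 genes, with the mean level of the 2 high sugar groups on the x axis as log2(CPM + 0.1) and the log2 fold change of mlx1 over control on the y axis. The 683 higher and 709 lower genes lie on both sides of 0 over the whole range of levels, with bigmax and cbt among the lowest and Cyp4e3 at 7.67.

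The Mlx gene itself, listed as bigmax (3R:23113088-23114248 in the coordinates of the table, whose genome build is not given in the sources used here), was nearly silent in the mutants. It had 1.08, 0.823 and 0.771 CPM in mlx1 libraries, against 30.5, 34.1 and 33.3 CPM in control libraries, a log2 fold change of -5.18 ± 0.18 (SE, adjusted p = 3.08e-08). Its first exon entry (23113088-23113441) had 0 reads in mlx1 and 223 in control libraries, at least 72.7-fold lower when 3 counts over the group are taken as the limit. The second entry (23113507-23113907) had 1 read in mlx1 and 532 in control libraries, and the third (23114050-23114248) had 25 reads in mlx1 and 209 in control libraries, 8.18-fold lower in mlx1 (95% interval 5.39 to 12.9, counting error only). The reads counted for bigmax in the mutants thus came almost entirely from the last exon entry. Of its 3 exon entries 1 overlaps an entry of another gene, so reads counted there may not all come from bigmax.

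All 4 members of the small list of Mondo-Mlx and sugar-responsive factors, bigmax included, were lower in mlx1 larvae, with a median log2 fold change of -3.74. The transcription factor gene cbt (cabut, 2L:476446-479688) had 0.217, 0.457 and 0.331 CPM in mlx1 libraries, against 14.0, 10.5 and 10.4 CPM in control libraries (-5.05 ± 0.34, adjusted p = 1.6e-06). The zinc finger factor gene sug (sugarbabe, 2R:8812072-8818149) had 37.6, 34.9 and 35.3 CPM in mlx1, against 193, 205 and 186 CPM in control libraries (-2.44 ± 0.11, adjusted p = 5.96e-08). For both genes every mlx1 library lay far below every control library. Mio, which encodes Mondo, was lower by a smaller margin, at 185, 186 and 171 CPM in mlx1 and 245, 299 and 253 CPM in control libraries (-0.56 ± 0.12, adjusted p = 0.0078). The factors and enzymes in these lists were chosen with results of these larvae known, so their direction is not independent evidence.

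All 7 tested genes of the pentose phosphate pathway, which makes NADPH for fat synthesis and ribose for nucleotides, were lower in mlx1 larvae, with a median log2 fold change of -1.90. The count stayed at 7 without any 1 library. The first enzyme, glucose-6-phosphate dehydrogenase (Zw, X:19561333-19566386), had 29.5, 33.0 and 29.5 CPM in mlx1 libraries, against 285, 279 and 327 CPM in control libraries, which is 9.68-fold lower (-3.28 ± 0.16, adjusted p = 8.11e-08). All 3 of its exon entries with at least 100 reads were lower, by 3.20 to 3.47 on the log2 scale. Pgd, the second NADPH-making step, had 131, 153 and 139 CPM in mlx1 and 824, 808 and 946 CPM in control libraries (-2.61 ± 0.13, adjusted p = 1.36e-07). The 2 dehydrogenases had the largest fold differences of the pathway. Transaldolase (Tal, Taldo) fell by 1.99, the transketolase CG8036 by 1.90, the isomerase Rpi by 1.43, the lactonase CG17333 (Pgls) by 1.28 and the epimerase CG30499 (Rpe) by 0.66 on the log2 scale. Rpi rests on few reads, at 3.5 CPM in mlx1 and 9.4 CPM in control larvae, and both of its exon entries overlap another gene.

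Of 20 genes of fatty acid and triglyceride synthesis, 10 were lower and 1 was higher in mlx1 larvae. The list's median was -0.37, and 9 members did not pass the test. ATP citrate lyase (ATPCL, 2R:11881036-11888795), which makes cytosolic acetyl-CoA from citrate, had 246, 263 and 192 CPM in mlx1 and 1445, 1977 and 1876 CPM in control libraries (-2.92 ± 0.27, adjusted p = 3.48e-05). Acetyl-CoA synthase (AcCoAS), which makes it from acetate, had 225, 251 and 227 CPM in mlx1 and 591, 759 and 703 CPM in control libraries (-1.54 ± 0.14, adjusted p = 1.52e-05). The enzymes that build fatty acids from it were lower as well. Acetyl-CoA carboxylase (ACC) had 1031, 1152 and 1051 CPM in mlx1 and 2948, 4108 and 3358 CPM in control libraries (-1.69 ± 0.16, adjusted p = 3.24e-05). Fatty acid synthase (CG3523, FASN1, 2L:3056598-3068177) had 2423, 2784 and 2310 CPM in mlx1 and 8030, 11691 and 9389 CPM in control libraries (-1.95 ± 0.18, adjusted p = 2.38e-05). For each of these 4 genes the highest mlx1 library stayed below the lowest control library.

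Downstream, the desaturase desat1 (Desat1) averaged 819 ± 8.77 CPM in mlx1 and 3272 ± 538 CPM in control larvae (SD, n = 3 each), which is -2.0 ± 0.14 in log2 fold change (adjusted p = 2.88e-06). Gpdh (Gpdh1), the glycerol phosphate dehydrogenase that supplies the triglyceride backbone, averaged 508 ± 16.7 CPM in mlx1 and 1907 ± 182 CPM in control larvae (-1.91 ± 0.12, adjusted p = 9.35e-07). The acyltransferase fu12 (Agpat2) was lower by a log2 fold change of -1.15 ± 0.16. The other 3 genes called lower, CG3209 (Gpat4), CG4729 (Agpat3) and SCAP, changed by -0.60, -0.40 and -0.37, and their calls were lost without mlx1 library A, mlx1 library C or control library B, and for both acyltransferases without control library C. Lipin (Lpin), a phosphatidate phosphatase of the same pathway and a nuclear regulator, went the other way, with 415, 378 and 377 CPM in mlx1 and 151, 164 and 152 CPM in control libraries (1.33 ± 0.13, adjusted p = 4.39e-05). The exon entries of a gene did not always move alike. Of ACC's 16 entries with at least 100 reads 15 were lower and 1 was 0.78 higher on the log2 scale, and of those of AcCoAS 4 of 5 and of desat1 7 of 8 were lower.

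**Figure D2:**
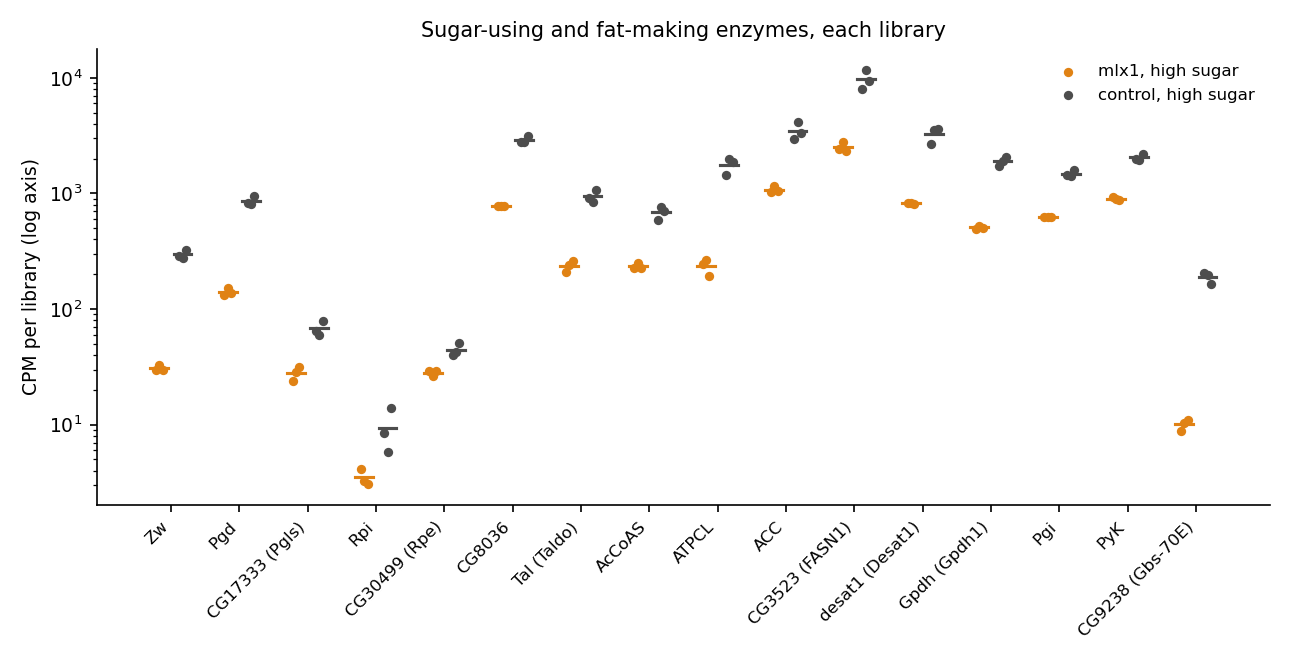
Points are CPM of single high sugar libraries on a log axis, mlx1 on the left and control on the right of each gene, with bars at the means. The 16 genes were picked from those called lower, so that the 3 mlx1 libraries lie below the 3 control libraries in each is no separate evidence. The gap is widest at CG9238 (10.1 against 188 CPM) and Zw (30.7 against 297 CPM).

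Of 12 tested genes of glycolysis 4 were lower and 1 was higher in mlx1, and the list's median was -0.14. Phosphoglucose isomerase (Pgi), which stands at the branch to the pentose phosphate pathway, had 631, 621 and 623 CPM in mlx1 and 1430, 1404 and 1597 CPM in control libraries (-1.24 ± 0.14, adjusted p = 0.000103). Pyruvate kinase (PyK), the last step, had 927, 887 and 883 CPM in mlx1 and 2003, 1960 and 2203 CPM in control libraries (-1.19 ± 0.16, adjusted p = 0.000362). These 2 kept their calls without any 1 library. Enolase (Eno), aldolase (Ald) and triosephosphate isomerase (Tpi) changed by -0.69, -0.33 and 0.46. The calls of Eno and Ald were both lost without mlx1 library A and without control library C, which left 2 genes lower. That of Tpi was lost without any of 5 of the 6 libraries. Hexokinase A (Hex-A), phosphofructokinase (Pfk) and lactate dehydrogenase (ImpL3, Ldh) did not pass the test, with log2 fold changes of 0.30 ± 0.13, -0.15 ± 0.16 and -0.06 ± 0.21.

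Of 14 tested genes of trehalose, glycogen and gluconeogenesis, 6 were lower and 3 higher in mlx1, with a median of -0.32. CG9238 (Gbs-70E, 3L:14534037-14544075), a glycogen-targeting subunit of protein phosphatase that promotes glycogen synthesis, had 8.89, 10.4 and 10.9 CPM in mlx1 and 203, 196 and 165 CPM in control libraries, 18.6-fold lower (-4.22 ± 0.20, adjusted p = 7.53e-08). The glycogen branching enzyme CG33138 (AGBE) averaged 125 CPM in mlx1 and 466 CPM in control larvae (-1.90 ± 0.27, adjusted p = 0.000894). Among trehalose genes, CG5171, a trehalose phosphatase family gene, had 9.87, 11.1 and 10.5 CPM in mlx1 and 35.7, 37.2 and 46.5 CPM in control libraries (-1.93 ± 0.13). The synthase Tps1 and UGP, which makes the UDP-glucose used by both stores, fell by 0.88 and 0.89 on the log2 scale, and Tps1 lost its call without mlx1 library C. Glycogen phosphorylase (GlyP, Glyp), which breaks glycogen down, was also lower, by 0.79, and lost its call without mlx1 library A, mlx1 library C or control library C.

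The 3 higher genes are known for making glucose or for splitting trehalose. CG10924, a phosphoenolpyruvate carboxykinase gene (2R:14414935-14423254), had 169, 198 and 166 CPM in mlx1 and 12.7, 21.8 and 19.7 CPM in control libraries, 9.81-fold higher (3.29 ± 0.28, adjusted p = 2.13e-05). Trehalase (Treh) had 383, 355 and 287 CPM in mlx1 and 95.4, 110 and 123 CPM in control libraries (1.64 ± 0.15, adjusted p = 1.93e-05), and fructose bisphosphatase (fbp) averaged 384 ± 38.0 CPM in mlx1 and 186 ± 16 CPM in control larvae (1.05 ± 0.12). Each was higher in every mlx1 library than in any control library. Glycogen synthase (CG6904, Glys) and the trehalose transporter Tret1-1 did not pass the test (-0.12 ± 0.14 and -0.19 ± 0.09). Pepck had no count and could not be tested. Whether this gene is silent or its reads were lost in counting is not known.

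Of 19 genes that release and burn fat, 9 were higher and 1 was lower in mlx1 larvae, 9 did not pass the test, and the median was 0.47. The triglyceride lipase brummer (bmm, 3L:14769596-14779512), the fly counterpart of adipose triglyceride lipase, had 197, 155 and 161 CPM in mlx1 and 35.2, 38.8 and 28.7 CPM in control libraries, 4.99-fold higher (2.32 ± 0.16, adjusted p = 1.71e-06), and all 8 of its exon entries were higher. In mitochondrial beta-oxidation the medium-chain acyl-CoA dehydrogenase CG12262 (Mcad) had 394, 404 and 398 CPM in mlx1 and 94.9, 92.9 and 139 CPM in control libraries (1.87 ± 0.17, adjusted p = 2.08e-05). The thiolase yip2 had 311, 329 and 336 CPM in mlx1 and 116, 118 and 143 CPM in control libraries (1.37 ± 0.10, adjusted p = 4.7e-06). The acyl-CoA dehydrogenase family gene CG3902, the enoyl-CoA hydratase CG6543 (Echs1) and the electron transfer flavoprotein subunit wal were higher by 1.53, 0.96 and 0.79 on the log2 scale. The very-long-chain acyl-CoA dehydrogenase CG7461 (Acadvl) was the one called lower (-0.36 ± 0.09), and its call was lost without mlx1 library A, mlx1 library C or control library C. Of the other 3 genes called higher, the acyl-CoA dehydrogenase family gene CG4860 (1.45 ± 0.24) kept its call without any 1 library, and scu and Acox57D-p lost theirs without 6 and 4 of the libraries.

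Amino acid genes moved in both directions. Of 20 genes of proline, glutamate and aromatic amino acid metabolism, 11 were higher and 5 lower in mlx1, and the median was 0.64. The 6 genes taken here for the chain that degrades phenylalanine and tyrosine were all higher. Phenylalanine hydroxylase (Hn) had 321, 258 and 365 CPM in mlx1 and 153, 115 and 140 CPM in control libraries (1.21 ± 0.18). The next steps were the transaminase CG1461 (Tat) at 1.26 ± 0.19, the hydroxyphenylpyruvate dioxygenase CG11796 (Hpd) at 2.02 ± 0.25, homogentisate dioxygenase (hgo) at 3.29 ± 0.18, the isomerase CG9363 (GstZ2, held in the glutathione transferase list) at 1.45 ± 0.16 and fumarylacetoacetase (Faa) at 1.45 ± 0.19. For hgo (2L:11136393-11138565) the CPM were 203, 170 and 222 in mlx1 and 24.3, 19.0 and 17.6 in control libraries, and all 7 of its exon entries with at least 100 reads were higher (adjusted p = 3.17e-07). The chain was put together after its values had been seen. The tryptophan-degrading genes v and cn were higher too, by 0.92 and 1.36 on the log2 scale.

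In the same list, glutamate dehydrogenase (Gdh) averaged 2557 CPM in mlx1 and 1275 CPM in control larvae (1.00 ± 0.21, adjusted p = 0.00745), and ornithine aminotransferase (Oat) and arginase (arg) were higher by 1.00 and 0.90. Genes that build glutamine, glutamate and proline were among the 5 members called lower. Gs2, a glutamine synthetase, had 141, 146 and 148 CPM in mlx1 and 335, 333 and 347 CPM in control libraries (-1.23 ± 0.09, adjusted p = 5.36e-06). The proline synthesis enzyme CG7470 (P5CS) had 143, 153 and 104 CPM in mlx1 and 314, 428 and 399 CPM in control libraries (-1.51 ± 0.18). The aspartate aminotransferase Got2, the glutamate synthase CG9674 and the mitochondrial glutamine synthetase Gs1 were lower by 1.16, 0.55 and 1.63 on the log2 scale, where Gs1 had 1.51 CPM in mlx1 and 4.69 CPM in control larvae.

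Among 15 genes of serine, glycine and one-carbon metabolism, 5 were higher and 3 lower, with a median of 0.31. The higher ones include enzymes that handle methyl groups. Sarcosine dehydrogenase (CG6385, Sardh) had 120, 138 and 127 CPM in mlx1 and 21.5, 23.0 and 22.9 CPM in control libraries, 5.7-fold higher (2.51 ± 0.11, adjusted p = 5.96e-08). Glycine N-methyltransferase (CG6188, Gnmt), which makes its substrate, had 176, 284 and 274 CPM in mlx1 and 76.5, 109 and 93.2 CPM in control libraries (1.39 ± 0.20, adjusted p = 0.000614). Cystathionine beta-synthase (Cbs), adenosylhomocysteinase (Ahcy13, Ahcy) and S-adenosylmethionine synthetase (Sam-S) were higher by 0.91, 0.61 and 0.44. The glycine decarboxylase gene CG3999 had 66.6, 77.5 and 72.7 CPM in mlx1 and 161, 164 and 174 CPM in control libraries (-1.20 ± 0.17, adjusted p = 0.000607). Without mlx1 library A, control library B or control library C it was the 1 lower member still called, since aay and CG9977 (AhcyL1) lost their calls. In purine synthesis 1 of 6 genes was higher, Prat2, with 21.6, 26.7 and 20.5 CPM in mlx1 and 6.41, 7.11 and 10.9 CPM in control libraries (1.49 ± 0.24), and 1 was lower, ade2 (Pfas), whose call was lost whichever of the 6 libraries was left out.

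**Figure D3:**
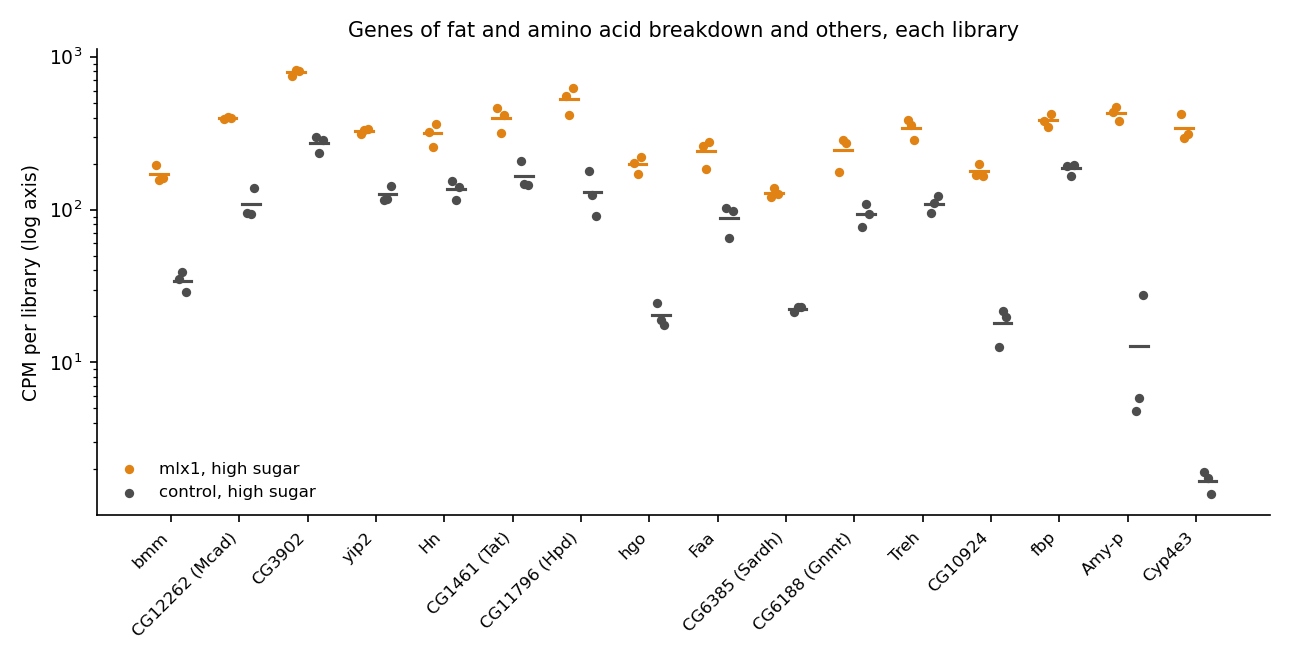
Points are CPM of single high sugar libraries on a log axis, mlx1 on the left and control on the right of each gene, with bars at the means. The 16 genes were picked from those called higher, so that the 3 mlx1 libraries lie above the 3 control libraries in each is no separate evidence. Control library C stands above the other 2 control libraries for Amy-p (27.7 against 4.83 and 5.87 CPM).

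Of 14 tricarboxylic acid cycle genes 3 were higher and none lower, with a median of 0.14: the isocitrate dehydrogenase Idh (1.29 ± 0.23), Nc73EF (Ogdh, 0.75 ± 0.18) and the fumarase l(1)G0255 (Fum1, 0.53 ± 0.12). Nc73EF lost its call without mlx1 library A, control library A or control library C, and l(1)G0255 without control library B. Of 59 subunits of the respiratory complexes 1 was higher, CG9350 (0.30 ± 0.09), whose call was lost whichever library was left out, and the median was 0.06. Among 10 polyol, alcohol and aldehyde dehydrogenases, the sorbitol dehydrogenases Sodh-2 (Sodh2, 2.15 ± 0.18) and Sodh-1 (Sodh1, 0.71 ± 0.16) were higher and the aldose reductase family gene CG6084 (Akr1B, -0.98 ± 0.18) lower. Sodh-1 lost its call without control library B, which left 1 higher, and 4 of the 6 exon entries of Sodh-2 overlap another gene. The list's median was 0.05 in edgeR and -0.02 in the DESeq2 fit.

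In insulin, TOR and growth genes, 5 of 15 members were higher and 1 lower, with a median of 0.28. The insulin receptor gene InR had 469, 364 and 369 CPM in mlx1 and 254, 266 and 247 CPM in control libraries (0.65 ± 0.14, adjusted p = 0.00752). Sesn (sestrin), which restrains TOR, had 182, 147 and 137 CPM in mlx1 and 88.8, 95.3 and 100 CPM in control libraries (0.71 ± 0.14, adjusted p = 0.00437), and CG18619 (REPTOR-BP), a transcription factor that acts when TOR is low, was higher by 0.79. Thor, the translation repressor 4E-BP, had 1272, 1028 and 1237 CPM in mlx1 and 642, 669 and 748 CPM in control libraries (0.78 ± 0.19, adjusted p = 0.0189). The groups of Thor do not overlap, but its call was lost without mlx1 library A, mlx1 library C, control library A or control library B. Lnk also lost its call without mlx1 library A, control library A or control library B, which left 3 higher members in each case. The activin-like ligand gene daw (dawdle) was the lower one, with 33.1, 32.4 and 27.2 CPM in mlx1 and 81.3, 90.3 and 78.8 CPM in control libraries (-1.43 ± 0.13, adjusted p = 1.6e-05). Ilp6 and the adipokinetic hormone receptor gene GRHR (AkhR) did not pass the test (-0.26 ± 0.20 and -0.38 ± 0.17).

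Of 26 genes of nucleolar ribosome biogenesis 16 were lower and none was higher in mlx1, with a median of -0.48. Nopp140, a nucleolar phosphoprotein, had 95.9, 106 and 102 CPM in mlx1 and 185, 234 and 143 CPM in control libraries (-0.89 ± 0.17, adjusted p = 0.00438). The snoRNP protein genes CG7637 (Nop10) and NHP2 were lower by 0.83 and 0.73, and l(1)1Bi (Mybbp1A) by 0.76 on the log2 scale. The summed level of the list was 2033, 2151 and 2278 CPM in mlx1 and 3052, 3161 and 2484 CPM in control libraries. Control library C, with the lowest mean log2 level of cuticle genes, lay nearer to the mutants than the other control libraries. Without control library C, 17 members were lower. The count was 8 without mlx1 library A or control library B and 9 without control library A. Over the alternatives other than leaving out 1 library, the count was 12 to 22. A fit with the mean cuticle gene level as a covariate is among them. Beyond that, the part of moulting stage in this result was not tested.

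Of 86 cytosolic ribosomal protein genes 9 were higher and none lower, with a median of 0.24, and their summed level was 117169, 107849 and 116499 CPM in mlx1 and 99691, 89055 and 100303 CPM in control libraries. These 9 of 86 stand beside the 6.8% of all genes called higher. DESeq2 called 21 of them higher, and 706 higher among all genes. At an unadjusted p under 0.05, 49 were higher, for which no share of all genes was counted. The edgeR count was 1 without mlx1 library A, mlx1 library C or control library B, 2 without mlx1 library B and 5 without control library A or control library C. RpL22-like changed most among the 9 (0.72 ± 0.14), and the other 8 by 0.31 to 0.39. Of 73 mitochondrial ribosomal protein genes 6 were lower and none higher, with a median of -0.24. DESeq2 called 13 lower, and 918 lower among all genes. The 6 fell to 2 without mlx1 library A, mlx1 library C or control library A, to 3 without control library C and to 4 without control library B. Of 19 DNA replication genes 1 was lower, Mcm2, and of 22 proton pump subunits 1 was lower, Vha100-4, with medians of -0.28 and -0.12. None of 33 proteasome subunits was called by edgeR or DESeq2, and 2 were lower at an unadjusted p under 0.05. The calls of Mcm2 and Vha100-4 were each lost without 4 of the 6 libraries.

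**Figure D4:**
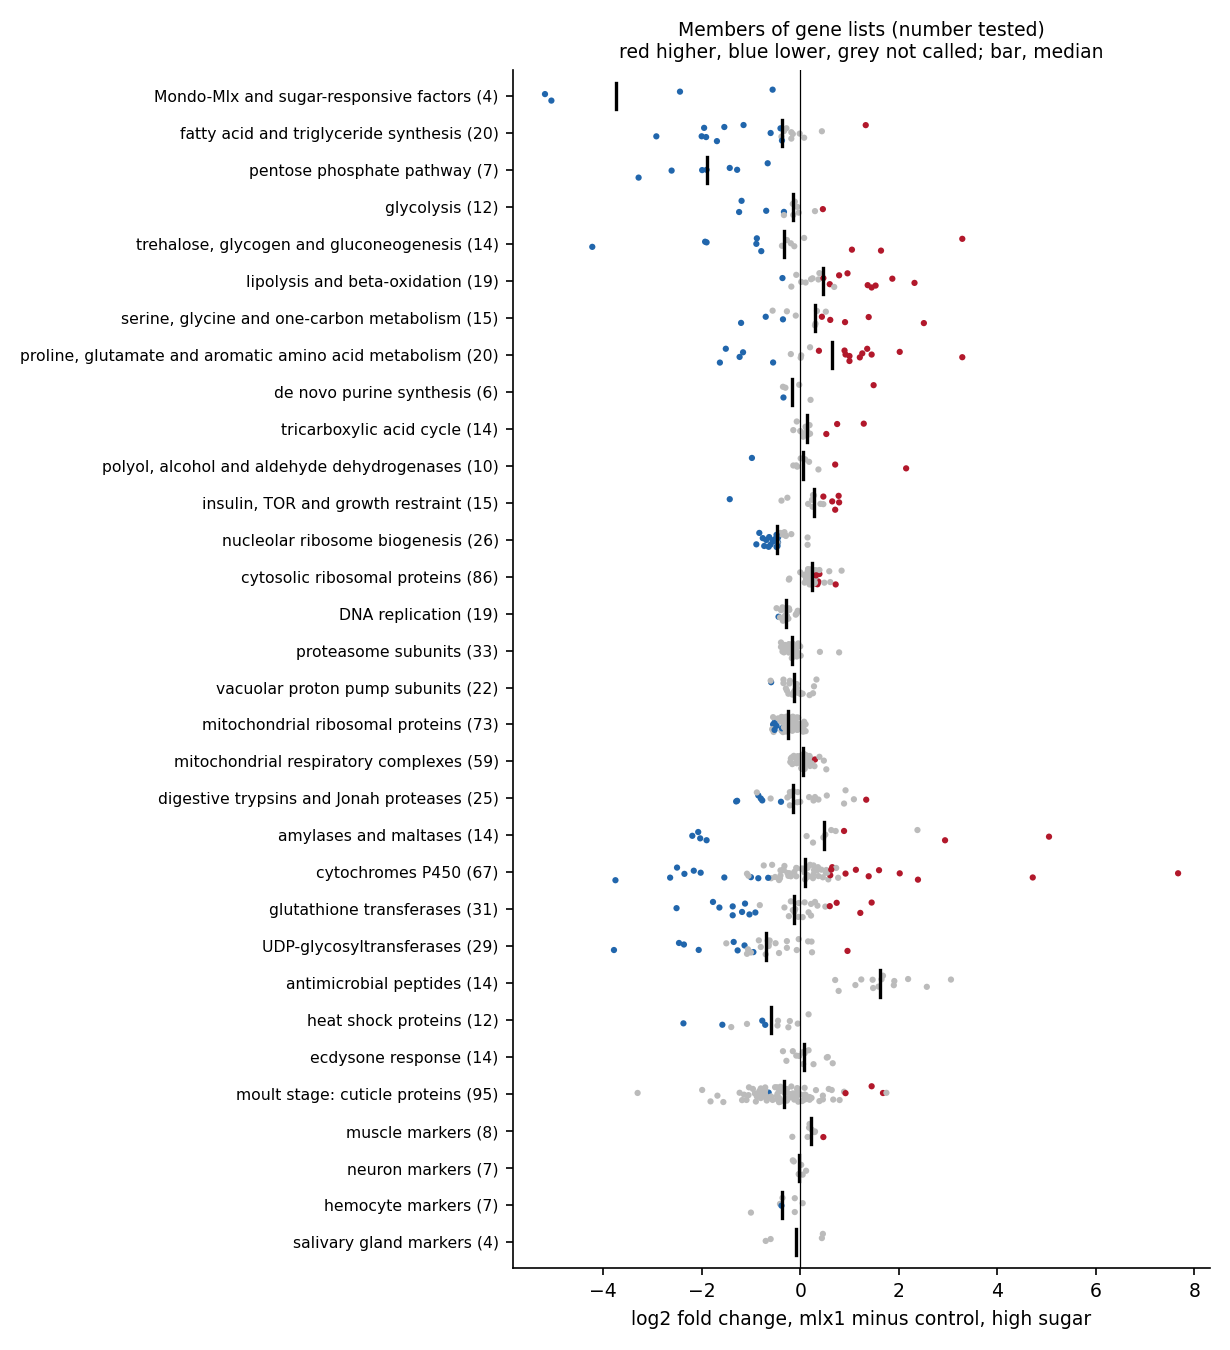
Each row is a gene list with its number of tested members in parentheses, each point is a member's log2 fold change of mlx1 over control on high sugar, and the black bar is the list's median. Pentose phosphate members all lie below 0 (median -1.90), ribosome biogenesis members cluster below 0 (median -0.48), and amylases and maltases and cytochromes P450 spread widely to both sides.

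The amylase gene Amy-p (2R:13006214-13007808), which starts starch digestion in the gut, had 432, 472 and 380 CPM in mlx1 and 4.83, 5.87 and 27.7 CPM in control libraries (5.05 ± 0.78, adjusted p = 0.00327). Its near-identical neighbour Amy-d was at 26.3 CPM in mlx1 and 3.36 CPM in control larvae (2.94 ± 0.77), and how reads were divided between the 2 copies is uncertain. Of the 14 amylases and maltases, whose median was 0.49, 3 were higher, Mal-B2 (0.89 ± 0.23) being the other. Only Amy-p, of the 3, was called without mlx1 library A, control library A or control library B, and Amy-d was also lost without mlx1 libraries B and C. The maltases of the Mal-A cluster on 2R went the other way for 4 of its 8 genes. Mal-A1 had 206, 186 and 125 CPM in mlx1 and 484, 838 and 1039 CPM in control libraries (-2.19 ± 0.27, adjusted p = 0.000259), and Mal-A8 had 60.8, 56.8 and 44.3 CPM in mlx1 and 154, 204 and 323 CPM in control libraries (-2.07 ± 0.23). Mal-A6 and Mal-A7 were lower by 1.90 and 2.03 on the log2 scale, while the 4 genes between, Mal-A2 to Mal-A5, had log2 fold changes of 0.13 to 0.72 and did not pass.

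Of 25 trypsins and Jonah proteases 6 were lower and 1 higher, with a median of -0.14. The trypsins thetaTry, iotaTry, zetaTry and alphaTry, of 1 gene cluster on 2R, were lower by 1.30, 0.85, 0.80 and 0.77 on the log2 scale and kept their calls without any 1 library. Jon74E and Jon65Aiv lost theirs without 6 and 4 of the libraries, so 4 lower members were left without mlx1 library A, mlx1 library C, control library B or control library C. Jon65Ai was the higher one, at 468 CPM in mlx1 and 184 CPM in control larvae (1.34 ± 0.28).

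Of 67 cytochromes P450, which oxidise toxins, hormones and fatty acids, 11 were higher and 10 lower, with a median of 0.09. Cyp4e3 (2L:9747839-9750071) had 424, 296 and 312 CPM in mlx1 and 1.91, 1.75 and 1.38 CPM in control libraries, 204-fold higher (7.67 ± 0.93, adjusted p = 0.000802), and Cyp6a8 had 149, 182 and 161 CPM in mlx1 and 3.71, 3.5 and 11.2 CPM in control libraries (4.72 ± 0.41). Cyp6a2 was the reverse, with 13.8, 16.7 and 14.4 CPM in mlx1 and 165, 198 and 243 CPM in control libraries (-3.75 ± 0.27, adjusted p = 5.36e-06), as was Cyp4p2, with 31.9, 28.8 and 26.4 CPM in mlx1 and 170, 201 and 171 CPM in control libraries (-2.64 ± 0.12). Cyp28d1 was higher (1.39 ± 0.14) and the adjoining Cyp28d2 lower (-2.02 ± 0.20). The count of higher P450 genes was 6 without mlx1 library A or mlx1 library B and 7 without control library B. Reads of close relatives may have been split by the counting.

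Among conjugating enzymes of detoxification, of 31 glutathione transferases 9 were lower and 4 higher, the lower ones all in the GstD and GstE clusters on 3R and 2R, such as GstD7 at 46.5 CPM in mlx1 and 146 CPM in control larvae (-1.64 ± 0.25) and GstE7 at 48 CPM in mlx1 and 124 CPM in control larvae (-1.37 ± 0.22). The median was -0.12, and the count of higher ones was 2 without any 1 mlx1 library or without control library B. Of 29 UDP-glycosyltransferases 8 were lower and 1 higher, with a median of -0.70. CG5724 (Ugt37A2) had 4.99, 10.8 and 4.74 CPM in mlx1 and 43.7, 112 and 128 CPM in control libraries (-3.78 ± 0.58, adjusted p = 0.00255), and Ugt86Dc (Ugt302E1) averaged 5.12 CPM in mlx1 and 21.5 CPM in control larvae (-2.06 ± 0.31). The count of lower ones was 4 without mlx1 library C or control library B and 5 without mlx1 library B.

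Of 12 heat shock and chaperone genes 4 were lower and none higher, with a median of -0.58. Hsp83, the fly HSP90, had 434, 668 and 649 CPM in mlx1 and 1551, 2211 and 1477 CPM in control libraries (-1.58 ± 0.21, adjusted p = 0.000392). Hsp68 had 5.31, 9.88 and 10.5 CPM in mlx1 and 44.1, 64.6 and 24.5 CPM in control libraries (-2.37 ± 0.38), and its only exon entry overlaps another gene. The small heat shock gene Hsp26 and the mitochondrial chaperone gene Hsc70-5 were lower by 0.77 and 0.71, and both lost their calls without mlx1 library A or control library B, which left 2. None of the 14 antimicrobial peptide genes passed the edgeR test, although their median was 1.62. DESeq2 called 0 of these 14, and 1 was higher at an unadjusted p under 0.05. Their summed level was 1384, 507 and 118 CPM in mlx1 and 125, 131 and 480 CPM in control libraries, so the groups overlap. Leaving out 1 library gave 3 members called higher without control library C and 1 without mlx1 library B, control library A or control library B.

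Ranked by fold change among called genes that reached a mean of 10 CPM in one group and whose groups were fully apart, the 10 greatest falls were bigmax, cbt, CG32071, CG1774, CG9238, CG13315, CG14205, CG13560, CG32750 and Aph-4 (Alp4). CG1774 (3R:27418525-27420441) had 39.4, 40.5 and 40.5 CPM in mlx1 and 772, 838 and 763 CPM in control libraries, 19.7-fold lower (-4.30 ± 0.18, adjusted p = 5.96e-08). Aph-4, an alkaline phosphatase, had 20.9, 21.9 and 19.1 CPM in mlx1 and 257, 295 and 337 CPM in control libraries (-3.84 ± 0.21, adjusted p = 2.81e-07). CG14205 had 61.8, 36.3 and 20.9 CPM in mlx1 and 425, 734 and 846 CPM in control libraries (-4.07 ± 0.68), and CG13560 had 14.6, 31.7 and 53.2 CPM in mlx1 and 536, 617 and 442 CPM in control libraries (-4.0 ± 0.57). That every mlx1 library lay below every control library in these 4 genes was a condition of the ranking. CG32071, CG13315 and CG32750 had 48.1, 19.3 and 59.6 CPM in control larvae and 1.1 to 3.74 CPM in mlx1.

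The 10 greatest rises were Cyp4e3, CG17669 (Dnaaf3), CG31091, CG3292, Amy-p, CG6271, Cyp6a8, CG10814, CG1304 and CG6277. CG3292 (2R:18091199-18093098), of the alkaline phosphatase family, had 394, 614 and 418 CPM in mlx1 and 11.4, 5.15 and 13.1 CPM in control libraries, 48.1-fold higher (5.59 ± 0.47, adjusted p = 4.57e-05). The neighbouring lipase family genes CG6271 and CG6277 on 3R were higher by 4.90 ± 0.66 and 4.44 ± 0.41, and CG6271 had 230, 109 and 98.3 CPM in mlx1 and 3.37, 3.09 and 8.01 CPM in control libraries. CG10814 had 211, 202 and 159 CPM in mlx1 and 5.39, 5.25 and 14.4 CPM in control libraries (4.50 ± 0.42), and the serine protease family gene CG1304 had 44.4, 53.3 and 30.5 CPM in mlx1 and 1.35, 1.75 and 2.67 CPM in control libraries (4.45 ± 0.42). CG17669 (Dnaaf3) had 304 counts in mlx1 and 2 in control libraries, a depth-scaled ratio of 155 (95% interval 42.6 to 1289), and CG31091 had 285 and 3, a ratio of 97.1 (32.9 to 474), with intervals for counting error only. CG31091 lost its call without control library B.

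The same genotype comparison on low sugar at 1.5 h shares no library with that on high sugar, though the 2 lines are the same. On low sugar 361 genes (3.59%) were called, 183 higher (1.82%) and 178 lower (1.77%) in mlx1, and the count was 180 without control low sugar library B and 201 without mlx1 low sugar library C. Of the genes lower in mlx1 on high sugar 93 were also lower on low sugar, 13.1% of the high sugar list and 52.2% of the low sugar list, and of the higher genes 108, which is 15.8% and 59%. Over genes, which are no independent replicates, Pearson's r of the log2 fold changes on the 2 diets was 0.41 and Spearman's rho 0.04.

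The difference of the genotype effects, high sugar minus low sugar, was tested in the same edgeR model and was called for 692 genes (6.89%), 333 upward (3.32%) and 359 downward (3.57%). It includes the hours after transfer, which go with the diet and cannot be told apart from it. The column names also carry a tag, the same in all low sugar libraries and different in all high sugar libraries. The meaning of this tag is not stated. If it marks larval stage or sequencing lane, these cannot be told apart from diet either. The count was 271, 312 and 281 without mlx1 library A, mlx1 library C and control library B of the high sugar groups, and 335 and 290 without mlx1 library C and control library B of the low sugar groups. Among genes lower in mlx1 on high sugar, 265 had a difference called downward, 234 of them not called on low sugar. Among genes higher in mlx1, 239 had a difference called upward, 212 of them not called on low sugar. Both genotype effects were called in the same direction with no called difference for 70 lower and 92 higher genes.

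The groups of genes fell on different sides of this test. bigmax, sug and Mio differed by nearly the same amount on both diets, with log2 fold changes of -5.24, -2.53 and -0.48 on low sugar and differences of 0.07, 0.09 and -0.08 (adjusted p = 0.95, 0.752 and 0.804), and the same held for Cyp6a2 (-3.67 on low sugar, difference -0.08) and daw (-1.29, difference -0.15). cbt, the other member of the Mondo-Mlx list with bigmax, sug and Mio, had -3.47 on low sugar and -5.05 on high sugar, a difference of -1.57 ± 0.50 (adjusted p = 0.0816). A difference that misses the threshold does not show equality. In the pentose phosphate pathway 6 of 7 members had a called difference, all downward, with a median of -1.62. Zw averaged 30.7 CPM in mlx1 and 297 CPM in control larvae on high sugar, and 25 CPM in mlx1 and 44.1 CPM in control larvae on low sugar (difference -2.46, adjusted p = 0.000117), and CG8036 averaged 779 CPM in mlx1 and 2902 CPM in control larvae on high sugar, and 814 CPM in mlx1 and 923 CPM in control larvae on low sugar (difference -1.72, adjusted p = 0.00178). In fatty acid and triglyceride synthesis 7 of 20 members had a called difference, all downward, ATPCL by -2.18 ± 0.36 among them. Fatty acid synthase did not (-0.26, adjusted p = 0.566): CG3523 was already lower in mlx1 on low sugar, at 465 CPM against 1509 CPM in control larvae.

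**Figure D5:**
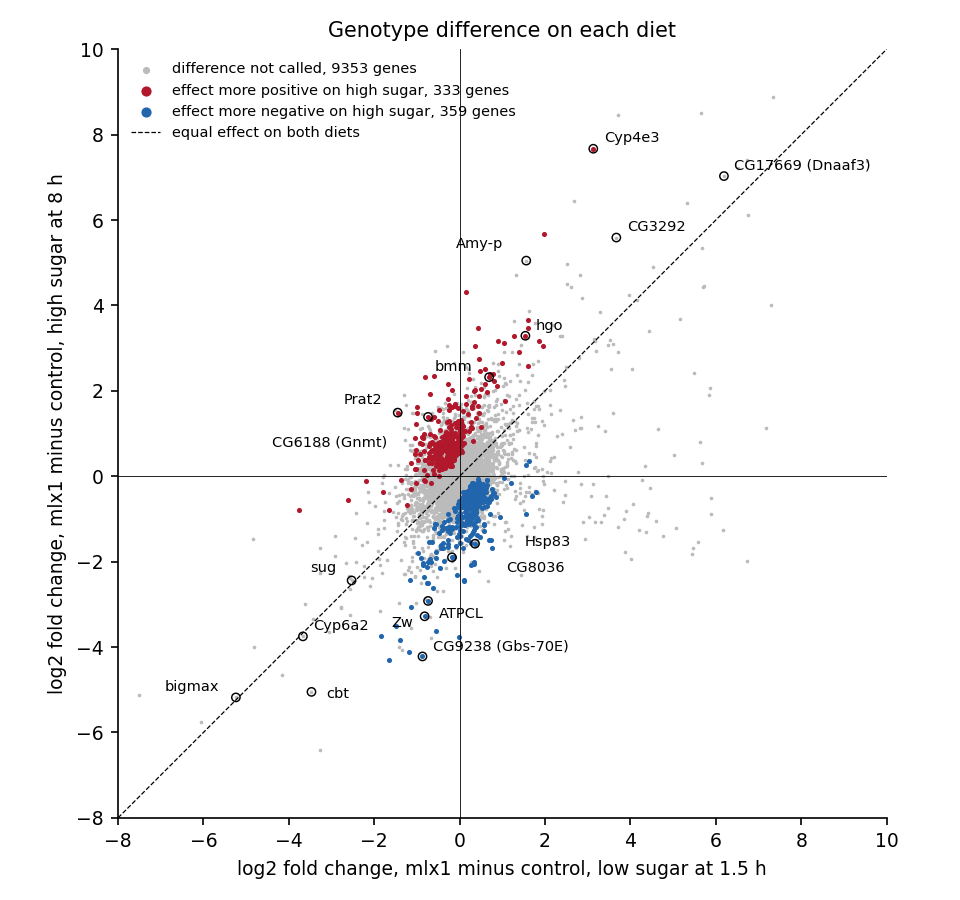
Each point is a gene, with the log2 fold change of mlx1 over control on low sugar at 1.5 h on the x axis and on high sugar at 8 h on the y axis, and the dashed line marks equal effects. bigmax, sug and Cyp6a2 lie near the line, while Zw, ATPCL, CG8036 and CG9238 lie below it and Prat2, CG6188 and bmm above it.

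Of 19 lipolysis and beta-oxidation genes 3 had a difference called upward and 0 downward, of 15 serine, glycine and one-carbon genes 5 upward and 2 downward, and of 20 proline, glutamate and aromatic amino acid genes 5 upward and 1 downward, with median differences of 0.31, 0.33 and 0.04. bmm averaged 171 CPM in mlx1 and 34.2 CPM in control larvae on high sugar, and 112 CPM in mlx1 and 69.6 CPM in control larvae on low sugar (difference 1.63, adjusted p = 0.00166). CG6385 (Sardh) averaged 128 CPM in mlx1 and 22.5 CPM in control larvae on high sugar, and 197 CPM in mlx1 and 130 CPM in control larvae on low sugar (difference 1.91, adjusted p = 7.29e-05). CG6188 (Gnmt) averaged 245 CPM in mlx1 and 93.1 CPM in control larvae on high sugar, and 271 CPM in mlx1 and 455 CPM in control larvae on low sugar (difference 2.14, adjusted p = 0.00166). In these 3 genes the control larvae had lower levels on high sugar than on low sugar. Prat2 was called in opposite directions, lower in mlx1 on low sugar (-1.45) and higher on high sugar (1.49), a difference of 2.95 (adjusted p = 0.00113). Of the ribosome lists, 18 of 86 cytosolic ribosomal protein genes had a difference called upward and 10 of 26 ribosome biogenesis genes one called downward, with medians of 0.41 and -0.51. On low sugar itself edgeR called 0 of these 26 ribosome biogenesis genes.

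Calls were spread over the genome. The share of tested genes called on high sugar was 13.4% on X, 14.9% on 2L, 15.7% on 2R, 12.2% on 3L and 13.7% on 3R, against 13.9% of all genes, and 4.82% of the 83 genes on chromosome 4. Within 1 Mb of bigmax 13% of 146 genes were called, close to the share over all genes. A small set of genes, picked after their values had been seen, had at least 100 reads over the 6 libraries of one genotype and at most 3 over the 6 of the other, on both diets together. They were CG13405, CG43149, CG4650, CR30029, CR43988 (lncRNA:CR43988) and CR44316 (lncRNA:CR44316), near absent in control larvae, and Rab9Fa, near absent in mlx1 larvae. CG43149 had 536 reads in mlx1 and 1 in control libraries, and Rab9Fa had 1 read in mlx1 and 115 in control libraries. Of the 6 genes near absent in control larvae, CG43149, CR43988 and CG13405 lie within 3L:53873-75332, and bigmax lies on 3R. Whether these differences come from the mlx1 allele or from the background of the lines cannot be told apart in this design.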

How the data were processed

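Poly(A) RNA of whole larvae was sequenced in 12 libraries. The deposited table holds whole-number read counts per exon entry, for which the submitters' processing notes name BWA 0.5.9, SAMtools and HTSeq 0.6.1. Neither the genome build nor how strand was handled is given in the sources used here. Entries were summed per gene name, and 42 entries without a name (at most 0.0148% of a library's counts) were left out. Of 82046 entries, 8041 overlap another gene. Library totals were 8924342 to 12507970 counts, which limits what low genes can show. Genes were tested with the quasi-likelihood test of edgeR 4.0.16 (R 4.3.3) on all 12 libraries in 4 groups with TMM factors, 8 residual degrees of freedom, and Benjamini-Hochberg adjustment over 10045 genes; the script was tested on simulated counts. CPM values are not divided by gene length. Standard errors are those of the log2 fold change. The names are the table's, with the current symbol in parentheses.

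Named genes are the 10 largest falls and the 10 largest rises, up to 5 called members of each list with the smallest p (in a list with no call, the 2 members with the smallest p), and 17 genes chosen by name. Further members were named after their values were seen. Members and lists were chosen with earlier results of these data known. Alternatives were RLE and upper-quartile factors, other filters on low counts, DESeq2 1.42.0, the 6 high sugar libraries alone, a cuticle gene covariate, the letter as a block, no overlapping entries, and leaving out libraries.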

Additional observations from a re-analysis of the deposited data

Results flagged for a closer look

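The genotype effect (mlx1 minus control, log2) differed between the diets for the named genes given here, as high sugar minus low sugar with an edgeR adjusted p under 0.05. Time after transfer and the tag in the column names go with diet in all of them. Among sugar and fat genes the difference was downward for CG9238 (-3.35), Zw (-2.46), ATPCL (-2.18), Pgd (-1.99), CG8036 (-1.72), Tal (-1.62), desat1 (-1.33), CG5171 (-1.24), PyK (-1.10), Pgi (-1.06), Gpdh (-1.0), CG17333 (-1.0), AcCoAS (-0.90) and Ald (-0.57). It was upward for bmm (1.63), Sodh-2 (1.56), CG12262 (1.41) and yip2 (0.99).

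In amino acid, methyl group and purine genes it was upward for Prat2 (2.95), CG6188 (2.14), CG6385 (1.91), hgo (1.75), CG9363 (1.25), Cbs (1.09) and Ahcy13 (0.84), and downward for CG3999 (-1.56) and Got2 (-0.74). In growth and ribosome genes it was upward for Thor (1.47), CG18619 (1.00), InR (0.81), Sesn (0.75), RpL17 (0.65), RpL13 (0.64) and RpS20 (0.54), and downward for Nopp140 (-1.26), l(1)1Bi (-1.15), NHP2 (-0.89), CG7839 (-0.80), tko (-0.68) and Mcm2 (-0.63).

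Of the remaining named genes the difference was upward for Cyp4e3 (4.55), Cyp28d1 (2.0) and the cuticle gene Cpr65Ay (1.33). It was downward for CG13315 (-2.93), CG1774 (-2.66), Aph-4 (-2.44), Ugt86Dc (-2.40), Cyp28d2 (-2.36), Hsp83 (-1.95), GstD7 (-1.56), Hsc70-5 (-1.29), Mal-A8 (-1.23) and Vha100-4 (-1.21). Control library C on high sugar lay low in the mean log2 level of cuticle genes, and its part in these differences was not tested gene by gene.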

How the results depend on the processing

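Of the 1392 genes called on high sugar (683 higher, 709 lower), the cuticle gene covariate gave 2236 (1069 higher, 1167 lower), and the other alternatives that keep all libraries of the contrast gave 1343 to 1776. The count was 1779 without control library C on high sugar and library A of both low sugar groups. Each of these 3 libraries had the lowest summed cuticle gene CPM of its own group. Leaving out 1 library gave 825 to 1123 genes, 407 to 568 higher and 415 to 610 lower. On low sugar, where 361 were called, DESeq2 gave 640, the covariate 609 and leaving out 1 library 180 to 441. For the difference of the genotype effects, where 692 were called, DESeq2 gave 1191, the covariate 1370 and leaving out 1 library 271 to 1021. The causes were not tested, beyond fewer libraries in the last case. Of 135 named genes 121 were called, and 91 kept their call in every alternative that gave a value. None reversed.

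The labels do not say whether the letters A, B and C pair the groups. On high sugar, deviations of same-lettered mlx1 and control libraries from their group means correlated at -0.003, 0.342 and -0.348 across genes. With 3 libraries per group these deviations depend on each other, so the values cannot decide whether the letters pair. With the letter as a replicate block 1343 genes were called on high sugar (675 higher, 668 lower), 336 on low sugar and 534 for the difference. Depth limits genes of few reads such as bigmax and cbt in mutants, and the small number of libraries makes single calls near the threshold depend on 1 library.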
